A study of Mus musculus with 2 samples.

Results

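The genes described here are integrin chains, selectin genes and other surface adhesion genes through which blood stem cells hold on to the bone marrow. They were taken from a list of 38 symbols matched to Ensembl gene identifiers, and all 38 were found among the 43346 mouse genes of the tables. The list holds 16 integrin alpha chains, 7 beta chains and 15 other adhesion genes. The data are total RNA sequencing of 2 libraries, labelled biological replicates 1 and 2, each made from a pool of 100 hematopoietic stem cells. Both come from adult male C57BL/6J mice aged 5 to 6 weeks, with no treatment or genetic change listed, and form a single group. The labels give both pools the same donor identifier under different biosample identifiers, and their spread may therefore be in part technical. The sorting gate was not among the labels, and it is not known whether the protein of any listed gene was used to choose the cells.

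Integrins are receptors made of an alpha and a beta chain that must pair to reach the cell surface. Each pair reads its own set of ligands, such as fibronectin, laminins or the vascular adhesion molecule Vcam1, and in the marrow they help to keep stem cells in place and to bring transplanted cells home. Selectins on vessel walls bind sugar-bearing proteins such as the product of Selplg on passing blood cells, and talin, encoded by Tln1, switches integrins on from inside the cell.

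Levels are in TPM, a transcript abundance scaled to a fixed total within each library and corrected for length, so that genes can be compared. Paired values stand in the order replicate 1, replicate 2, and errors are the SD of the 2 libraries (n = 2 throughout). Detection required at least 1 TPM together with an expected count, the estimated number of reads, of 10 or above. The tables held 48307557 expected counts on mouse genes in replicate 1 and 28945011 in replicate 2, of which the 38 genes took 83247 and 44667. The nuclear protein coding genes held 30.04% and 26.6% of TPM. All 9 stem and multipotent markers on the list used here were detected in both libraries, with a summed level of 705 and 498 TPM. Summed levels of other lists were 9.08 and 24.6 TPM over 7 B cell markers and 58.4 and 64.9 TPM over 8 T and NK markers (mostly Nkg7). They were 1632 and 1333 TPM over 5 erythroid markers (mostly Car1) and 38.8 and 12.0 TPM over 5 mast cell and basophil markers. Most of the latter sum in replicate 1 was Prg2 (31.75 and 1.79 TPM). By TPM, Mcpt8 and Cpa3 were also higher in replicate 1, whereas Ms4a2 and Hdc (0.01 and 4.96 TPM) were higher in replicate 2. By expected counts Cpa3 was higher in replicate 2 (37 and 73). The summed level of 11 neutrophil and monocyte markers was 10.6 and 349 TPM, and 8 of them were over 2-fold higher in replicate 2. Replicate 2 thus carried RNA of such genes that replicate 1 mostly lacked, while Csf1r and Ccr2 of that list were higher in replicate 1. Fewer cells of a type and less RNA per cell cannot be told apart in such pools. With 1 group of 2 libraries no test between conditions exists, and a two-sided sign-flip test cannot give a p under 0.5.

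Of the 38 genes, 20 were detected in both libraries (52.6%), beside 45.5% of all nuclear protein coding genes. They comprised 7 alpha chains, 4 beta chains and 9 other adhesion genes. Cd47 and Tln1 were highest, and Itga4, Cd44, Cd164 and Itgb1 followed. The median of all 38 genes was 1.80 and 2.24 TPM, against 0.19 and 1.02 TPM over coding genes. In the order of the 20 detected genes by mean level, 13 of 19 neighbouring pairs had ranges that overlapped, so most adjacent ranks are not separated by the spread between libraries.

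**Figure D1:**
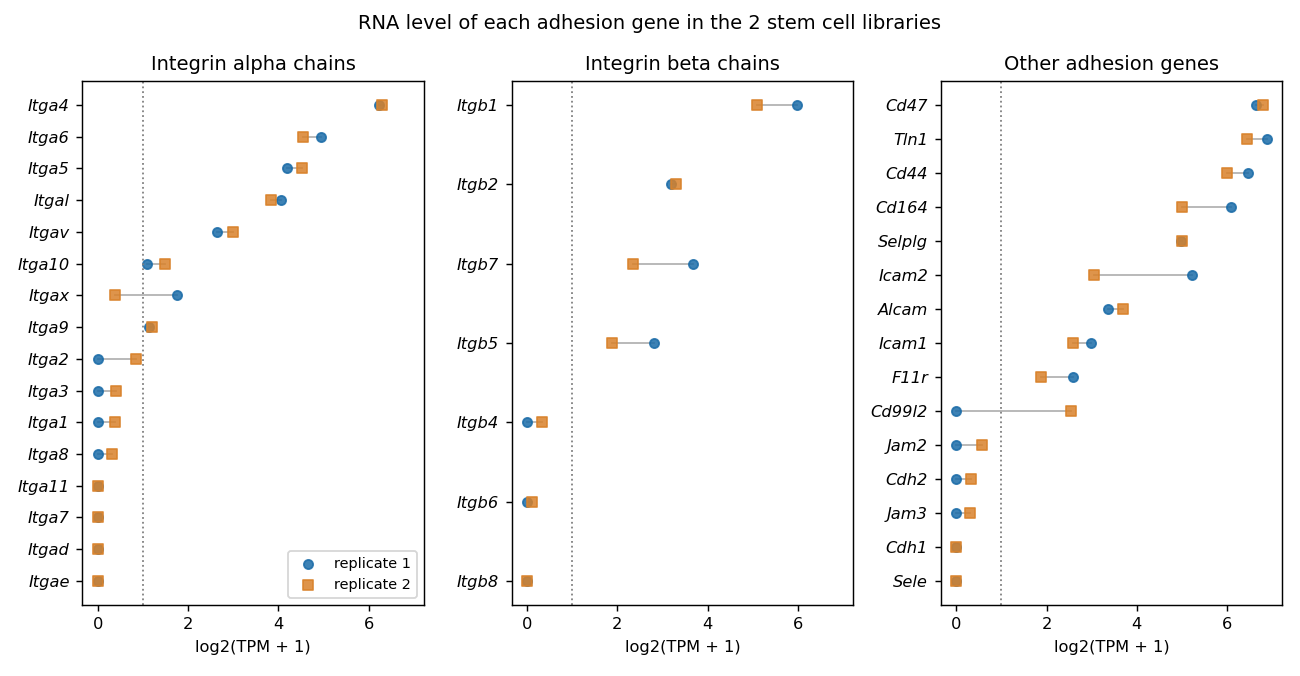
Level of each of the 38 genes as log2(TPM + 1), in panels for integrin alpha chains, beta chains and other adhesion genes, with a circle for replicate 1 and a square for replicate 2. The dotted line marks 1 TPM. Itga4 lies far right of the other alpha chains at 73.6 and 77.7 TPM, while Icam2 (36.4 and 7.34 TPM) and Cd99l2 (0 and 4.81 TPM) show wide gaps between libraries.

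Among alpha chains, Itga4 was highest. It encodes the chain that pairs with beta 1 to read Vcam1 and fibronectin, and with beta 7 to read Madcam1. Itga4 (chr2:79255426-79333123, mm10) stood at 73.6 and 77.7 TPM (75.7 ± 2.89 TPM), from expected counts of 19780 and 10720. The libraries nearly coincided, and Itga4 lay above 96.6% and 97.6% of coding genes. It carried 57.5% and 58.0% of the summed TPM of the 12 alpha chains that can pair with beta 1. Exons of Itga4 share 1124 bases with Cerkl on the other strand, which stood at 5.52 and 7.31 TPM, and no label says whether the counting used strand.

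Itga6, the laminin-reading chain known as CD49f, and Itga5, the fibronectin receptor chain, came next. Itga6 (chr2:71745616-71858416) was at 29.6 and 22.5 TPM (26.1 ± 5.06 TPM). Itga5 (chr15:103344286-103366763) was at 17.3 and 22.1 TPM (19.7 ± 3.38 TPM). The ranges of these chains did not overlap, but in replicate 2 they lay within 1 TPM of each other. Itga6 made up 23.1% and 16.8% of the summed beta 1 partners, and Itga5 13.5% and 16.5%.

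Other partners of beta 1 were low. Itgav, the shared chain of the receptors that read vitronectin, osteopontin and latent TGF-beta, was at 5.26 and 6.93 TPM (6.10 ± 1.18 TPM). Itga9, which reads Vcam1, tenascin and osteopontin, was at 1.21 and 1.30 TPM, and Itga10, a collagen receptor chain, at 1.12 and 1.81 TPM. Both sat just above the detection limit, from 59 and 88 expected counts for Itga9 and 177 and 56.9 for Itga10. The remaining 6 beta 1 partners were not detected. Itga1 (0 and 0.31 TPM), Itga2 (0 and 0.81 TPM), Itga3 (0 and 0.33 TPM) and Itga8 (0 and 0.24 TPM) had reads in replicate 2 alone, and Itga7 and Itga11 had none in either library. Collagen and laminin receptors of stromal and epithelial cells fall in this group.

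Itgb1, the beta chain shared by 12 alpha chains, was the most abundant beta chain. Itgb1 (chr8:128685654-128733200) stood at 62.04 and 33.1 TPM (47.5 ± 20.5 TPM), from expected counts of 3339 and 2076. The higher library depended on the scale. CPM with TMM factors (a normalization by counts, without length) gave 64.7 in replicate 1 and 76.6 in replicate 2, since the length of the estimated transcript mix was 1800 bases in replicate 1 and 3591 bases in replicate 2. Summed TPM of its alpha partners came to 128 and 134, above Itgb1 in both libraries, with a log2 ratio of Itgb1 to that sum of -1.05 and -2.02 (-1.53 ± 0.69, pseudocount 0.1 TPM). Itga4 alone exceeded Itgb1 in each library.

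The leukocyte chain Itgb2, which pairs with Itgal, Itgam, Itgax and Itgad and reads Icam1, Icam2 and fibrinogen, was at 8.08 and 8.85 TPM (8.47 ± 0.54 TPM). Itgal, its partner in the receptor LFA-1, was at 15.8 and 13.3 TPM (14.5 ± 1.76 TPM). Both were close between libraries, with 2432 and 1057 expected counts for Itgal. Itgax, the CD11c chain of dendritic cells and macrophages, was at 2.39 and 0.31 TPM, and so was detected in replicate 1 alone. Itgad had no reads. Itgam, the CD11b chain of myeloid cells, which is not on the list of 38 but completes the family, was at 1.18 and 9.52 TPM. On protein coding transcripts Itgam was at 0 and 4.44 TPM. Itgam was higher in the library where 8 of 11 neutrophil and monocyte markers were over 2-fold higher. Among them were Ngp (0.09 and 139.5 TPM) and S100a9 (0.24 and 69.1 TPM), with S100a8 and Ltf at 0 in replicate 1. The monocyte receptor genes of that list, Csf1r (3.37 and 1.81 TPM) and Ccr2 (2.10 and 1.33 TPM), were higher in replicate 1. Unlike Itgam, Itgax was higher in replicate 1. Of 6 dendritic markers (summed level 76.3 and 53.1 TPM), Zbtb46 and Flt3, which is also a stem and progenitor gene, were detected in both libraries. By TPM both were higher in replicate 1, with Zbtb46 at 17.7 and 9.35 TPM. By expected counts Zbtb46 was higher in replicate 2 (560 and 672), although that library held fewer counts in all. Siglech was at 0 and 0.85 TPM, and Xcr1, Cd209a and Clec9a had no count in either library. Of 7 macrophage markers, 1 was detected in both libraries (Cd68, summed level of the list 6.63 and 5.59 TPM). Cd163 passed in replicate 1 alone, as Itgax did, at 1.16 and 0.12 TPM, and C1qa and C1qb were at 0. The part of such cells in the Itgam and Itgax levels was not tested. The gene totals of Itgb2 and Itgal were close between the libraries, but on protein coding transcripts Itgb2 was at 0.08 and 8.32 TPM, higher in the library with the neutrophil markers.

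Itgb7, the mucosal homing beta chain, was at 11.7 and 4.07 TPM (7.91 ± 5.42 TPM), from 961 and 188 expected counts. It was 2.88-fold higher in replicate 1, by CPM as well (18.6 and 6.94). Of 8 T and NK markers, 4 were over 2-fold higher in replicate 1 as well. They were Klrb1c (7.24 and 0.43 TPM), Ncr1 (7.04 and 1.74 TPM), Cd3e (3.56 and 0 TPM) and Cd3g (3.18 and 0 TPM). Lck (1.19 and 6.95 TPM) was over 2-fold higher in replicate 2. The most abundant marker, Nkg7, was also higher there (36.2 and 55.8 TPM), as was the summed level of the list (58.4 and 64.9 TPM). Cd3d and Cd8a were at 0 in both. The part of T and NK cells in the Itgb7 and Itgax levels was not tested. The other partner of Itgb7, Itgae, the CD103 chain of intraepithelial lymphocytes, had no reads. Itgb5, which pairs with Itgav to read vitronectin, was at 6.07 and 2.66 TPM (4.37 ± 2.41 TPM). Itgb3, outside the list of 38, was at 2.07 and 1.70 TPM, below its partner Itga2b at 11.3 and 21.3 TPM, which marks megakaryocytes and some stem cells. Of 6 megakaryocyte markers, 3 were detected in both libraries, and Pf4, Ppbp and Gp1bb were at 0 in replicate 1. Their part in the Itga2b and Itgb3 levels was not tested. The remaining beta chains were not detected, with Itgb4 at 0 and 0.26 TPM, Itgb6 at 0 and 0.08 TPM and Itgb8 at 0 in both.

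Putting the chains together, 12 of the 24 textbook integrin pairs had both chains detected in both libraries, of which 3 involve Itgam, Itga2b or Itgb3. The level of a pair is described here by its lower chain, which RNA alone cannot turn into an amount of surface protein. The fibronectin and Vcam1 receptor Itga4 with Itgb1 came first, with a lower chain at 62.04 and 33.1 TPM, Itgb1 being the lower chain in each. The laminin receptor Itga6 with Itgb1 followed at 29.6 and 22.5 TPM, and the fibronectin receptor Itga5 with Itgb1 at 17.3 and 22.1 TPM, the alpha chain being lower in both. All 3 stood above every other pair in each library. On protein coding transcripts alone the latter pairs changed places, with Itga5 and Itgb1 at 16.6 and 22.1 TPM and Itga6 and Itgb1 at 15.3 and 10.5 TPM. Itgal with Itgb2 was limited by Itgb2, and Itga4 with Itgb7 by Itgb7 at 11.7 and 4.07 TPM. These pairs share chains, so their levels are not independent and cannot be added.

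The vitronectin and TGF-beta reading pairs of Itgav had both chains detected with Itgb1 (5.26 and 6.93 TPM), Itgb5 (5.26 and 2.66 TPM) and Itgb3 (2.07 and 1.70 TPM). Itgb6 and Itgb8 were not detected. On protein coding transcripts Itgb3 was at 0 and 1.70 TPM. Itga10 and Itga9 with Itgb1 came at under 2 TPM. Itgax with Itgb2 had both chains detected in replicate 1 only. The laminin receptor of epithelial hemidesmosomes, Itga6 with Itgb4, lacked detected Itgb4. With TPM taken from protein coding transcripts only, an alternative added after the transcript shares were seen, 6 pairs remained, Itga4 with Itgb1 or Itgb7, Itga5 and Itga6 with Itgb1, and Itgav with Itgb1 or Itgb5. A limit of 2 TPM left 7 pairs.

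**Figure D2:**
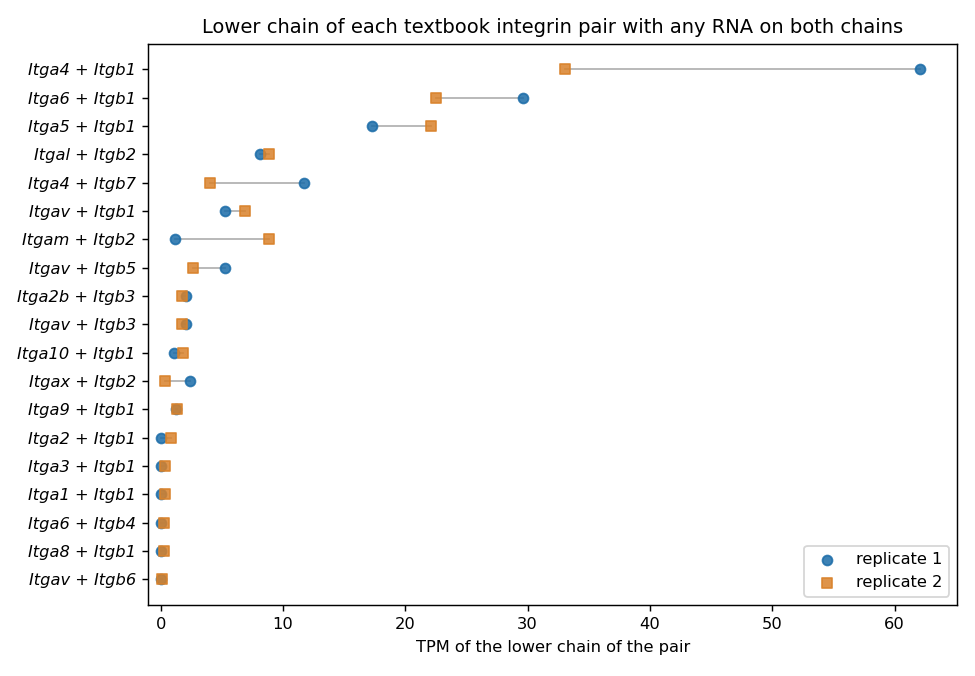
TPM of the lower chain (x axis, linear) for the 19 integrin pairs with RNA on both chains in at least 1 library, with a circle for replicate 1 and a square for replicate 2. The top pair, Itga4 with Itgb1, spans 33.1 to 62.04 TPM, and the pairs below Itgav with Itgb5 stay under 3 TPM in both libraries.

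Transcript estimates changed what stands behind some of these gene levels. Among the 20 detected genes, 11 had the same leading transcript in both and 9 did not. The same share over all coding genes is not given here, so this count shows no trait of adhesion genes. Wide shifts were seen in Itgb1 and Itgb2 and, from fewer expected counts, in Itga9 and Itga10. In replicate 1, the 16-exon coding transcript Itgb1-201 carried 11.5% of Itgb1 TPM (7.10 TPM), beside 34.5% on Itgb1-202, annotated as a target of nonsense-mediated decay, and 38.8% on the retained-intron fragment Itgb1-203. In replicate 2 Itgb1-201 carried 92.4% (30.5 TPM). By expected counts its share was 25.2% and 98.3%. Itgb2 was on Itgb2-204, a decay-annotated transcript, for 99.1% of its TPM in replicate 1, and on the coding transcript Itgb2-201 for 72.1% in replicate 2, where Itgb2-204 had none.

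These transcript pairs differ inside the coding part by an exon that the decay-annotated form lacks. The exons are printed as a difference between the forms inside the coding part. They are read 5′ to 3′ from the GENCODE M21 transcript sequences. The neighbouring exons give 10 bases in lower case, and the exon itself is in capitals. The Itgb1 exon is number 4 of 16, 223 bases at chr8:128710253-128710475 on the plus strand. The Itgb2 exon is number 12 of 16, 245 bases at chr10:77559479-77559723 on the plus strand. Neither length is a multiple of 3, leaving remainders of 1 and 2 bases, so a transcript without the exon is read in another frame after it.
Itgb1-201 exon 4: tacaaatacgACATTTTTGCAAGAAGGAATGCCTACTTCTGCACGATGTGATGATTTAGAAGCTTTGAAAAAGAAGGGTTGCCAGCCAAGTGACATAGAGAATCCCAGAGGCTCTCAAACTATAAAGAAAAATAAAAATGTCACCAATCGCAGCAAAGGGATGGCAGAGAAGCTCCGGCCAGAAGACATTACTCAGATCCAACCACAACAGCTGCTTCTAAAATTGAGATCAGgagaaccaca
Itgb2-201 exon 12: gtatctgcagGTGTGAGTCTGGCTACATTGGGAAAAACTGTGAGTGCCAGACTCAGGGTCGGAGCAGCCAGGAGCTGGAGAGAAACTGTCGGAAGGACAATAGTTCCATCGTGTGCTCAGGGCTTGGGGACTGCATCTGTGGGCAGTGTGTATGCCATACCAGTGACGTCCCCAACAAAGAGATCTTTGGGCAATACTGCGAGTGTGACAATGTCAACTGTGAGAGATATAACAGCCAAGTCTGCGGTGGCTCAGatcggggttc

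The forms differ in their first and last exons too, and the estimator shares reads of common exons among them, so which reads set the shares was not tested. Over all 9769 coding genes detected in both libraries, the median share of TPM on coding transcripts was 100% in replicate 1 and 88.9% in replicate 2, and 22.4% and 18.6% of genes had a coding share under 50%. Among the 20 adhesion genes, 4 were under that mark in replicate 1 (Itgb2, Itgb1, Itgav and Alcam) and 2 in replicate 2 (Itga10 and Itga6). Restricted to coding transcripts, Itgb1 stood at 16.6 and 31.6 TPM and Itgb2 at 0.08 and 8.32 TPM, so that Itgb2 was no longer detected in replicate 1.

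**Figure D3:**
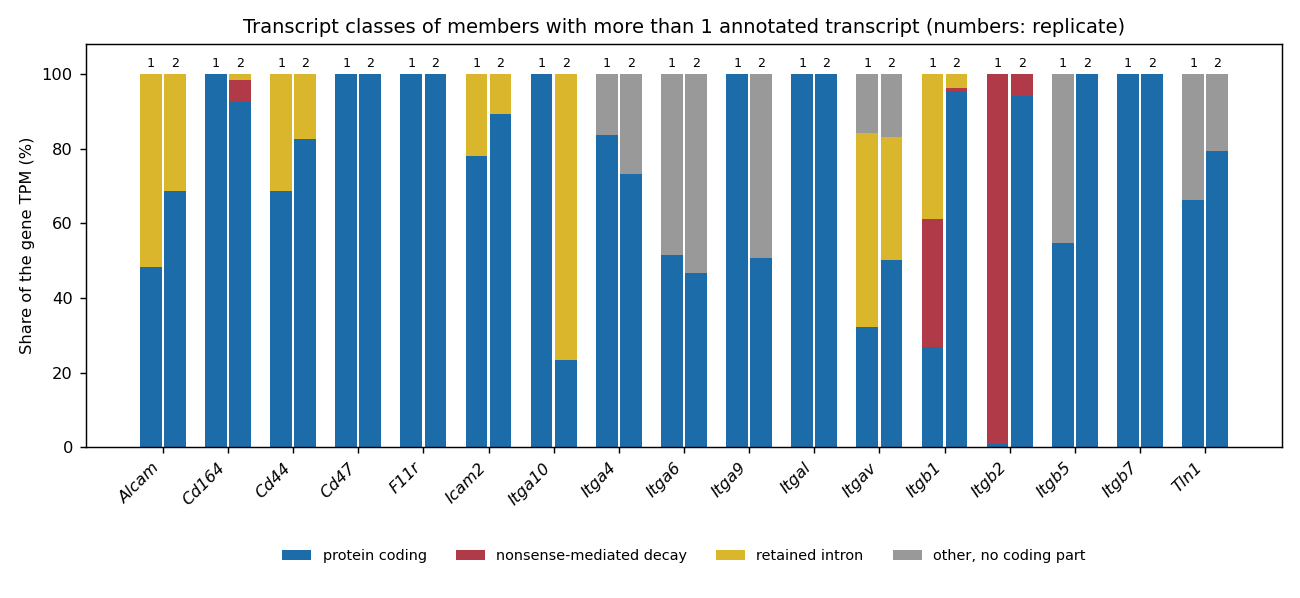
Share of gene TPM (y axis, percent) on each annotated transcript class, stacked, for the 17 detected genes with more than 1 annotated transcript, with bars for replicates 1 and 2 side by side. Itgb1 is 26.7% coding in replicate 1 and 95.5% in replicate 2, and Itgb2 0.94% and 93.95%, while Cd47, Itgal and Itgb7 are fully coding in both.

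Itga6 was split in the same way in both libraries. The coding transcript Itga6-201 carried 29.2% of TPM in replicate 1 and 27.0% in replicate 2, and the 3-exon transcript Itga6-203, which has no coding part in the annotation, 33.2% and 30.4%. Itga6-201 includes a 130-base exon, number 25 of 26, that Itga6-203 skips (plus strand). Choice of an exon at this place is known to give the A and B forms of the chain's cytoplasmic tail. The stop codon lies in this exon, and for that reason its 105 coding bases (chr2:71853534-71853638) are printed in capitals after 10 bases of the exon before it in lower case.
Itga6-201 exon 25, coding part: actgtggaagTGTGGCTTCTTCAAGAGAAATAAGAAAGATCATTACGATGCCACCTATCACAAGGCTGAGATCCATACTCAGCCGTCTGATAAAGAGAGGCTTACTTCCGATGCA

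Inside the cell, the gene for the integrin activator talin was strongly expressed. Tln1 (chr4:43531519-43562691) was at 117 and 85.9 TPM (102 ± 22.1 TPM), from 19060 and 10445 expected counts. By CPM the order of the libraries turned, with 369 in replicate 1 and 386 in replicate 2. The full-length transcript Tln1-201 was level, at 69.5 and 68.2 TPM, and a 274-base fragment, Tln1-205, made up 26.5% and 9.96% of gene TPM. Exons of Tln1 share 360 bases with Creb3 on the other strand (40.1 and 4.69 TPM). The related gene Tln2 had no reads.

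Of 32 genes of integrin activation and adaptors, 25 passed the detection limit in both libraries, and the list had a median of 26.7 and 18.9 TPM. Ilk, the scaffold kinase-like protein at integrin tails, was highest at 134 and 74.0 TPM (104 ± 42.3 TPM). The actin crosslinker Actn4 (89.2 ± 4.33 TPM), the focal adhesion protein gene Tns1 (74.6 ± 20.5 TPM), Rasgrp2, which activates the small GTPase Rap1 (69.4 ± 7.54 TPM), and Zyx (66.9 ± 9.98 TPM) followed. Of the kindlins, which bind beta tails together with talin, the blood cell form Fermt3 was detected, at 36.7 and 50.4 TPM, while Fermt1 and Fermt2 had no count in either library. The focal adhesion kinases split in a like way, with Ptk2b at 41.5 and 51.1 TPM and Ptk2 at 0.01 and 1.85 TPM.

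Genes of selectin binding were present on the ligand side. Selplg (chr5:113818536-113832644), which encodes the ligand PSGL-1 read by P- and E-selectin, was at 30.7 and 31.2 TPM (31.0 ± 0.37 TPM). By the ratio of the libraries, its values were the closest of the 8 most abundant genes. The vessel selectin gene Sele had no reads, and of 7 endothelial markers 2 were detected in both libraries (Tek and Emcn), with a summed level of 4.94 and 7.21 TPM and with Cdh5 and Kdr at 0. Of 13 genes for other selectins and for making the sugars they bind, 11 were detected in both. Among them were the sialyltransferase gene St3gal6 (31.9 ± 20.9 TPM), Glg1 (24.3 ± 7.33 TPM), which encodes another E-selectin ligand, the tyrosine sulfotransferase gene Tpst2 (23.2 ± 3.01 TPM) and B4galt1 (14.4 ± 2.35 TPM). The fucosyltransferase gene Fut7, needed for selectin ligands on leukocytes, was at 6.26 and 4.50 TPM.

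Cd44, the receptor for hyaluronan, was at 87.8 and 62.6 TPM (75.2 ± 17.8 TPM; chr2:102811141-102901665, minus strand). The transcript Cd44-207 carried 46.6% and 61.7% of it and Cd44-203 carried 19.7% and 17.6%. A further 31.4% and 17.4% lay on the retained-intron transcript Cd44-209. Cd44-207 has 14 exons, 5 of them variable exons of 90 to 207 bases that Cd44-203, with 9 exons and the make-up of standard CD44, lacks. Which reads set the shares was not tested. The join that defines the short form is printed with the end of exon 5 in lower case and the start of exon 6 in capitals, beside the longest variable exon, number 10 of 14 in Cd44-207 (chr2:102831330-102831536, minus strand), in capitals with 10 bases of its neighbours.
Cd44-203 join of exons 5 and 6: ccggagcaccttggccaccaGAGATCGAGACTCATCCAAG
Cd44-207 exon 10: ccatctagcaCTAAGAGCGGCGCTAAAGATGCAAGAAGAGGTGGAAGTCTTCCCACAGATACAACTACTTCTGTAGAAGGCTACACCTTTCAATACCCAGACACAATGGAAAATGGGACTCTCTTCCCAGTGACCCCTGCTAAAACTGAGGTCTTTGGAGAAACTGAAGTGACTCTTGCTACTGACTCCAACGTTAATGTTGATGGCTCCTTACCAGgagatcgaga
The 5 variable exons all have lengths that are multiples of 3.

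Cd47, whose product tells macrophages not to engulf the cell by binding Sirpa, was the most abundant gene of the list by mean. Cd47 was at 98.2 and 110.1 TPM (104 ± 8.39 TPM), above 97.8% and 98.5% of coding genes. Both annotated forms are coding, and Cd47-201 carried 76.1% and 71.1%. Its range overlapped that of Tln1. Cd164, which encodes a mucin-like sialomucin of progenitor cells, was at 66.9 and 31.1 TPM (49.0 ± 25.3 TPM). The gap was 2.15-fold in TPM, while the log2 difference was 1.08 in TPM (pseudocount 1) and 0.35 in CPM. The long transcript Cd164-201 was at 25.0 and 22.4 TPM, and the 692-base Cd164-204 at 42.0 and 6.37 TPM.

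The immunoglobulin-type adhesion genes were moderate. Icam2, a ligand of LFA-1 on endothelium and blood cells, was at 36.4 and 7.34 TPM, from 531 and 102 expected counts. This 4.95-fold gap was the widest among genes detected in both libraries, and CPM gave 10.3 and 3.77. Icam1, another LFA-1 ligand, was at 6.97 and 5.03 TPM (6.00 ± 1.37 TPM). By gene totals, the receptor pair Itgal with Itgb2 and both of these ligands were detected in the same pools. On protein coding transcripts Itgb2 was at 0.08 and 8.32 TPM, so the receptor pair was then detected in replicate 2 alone. Alcam, which binds itself and Cd6, was at 9.28 and 12.0 TPM (10.7 ± 1.95 TPM). The junctional gene F11r, which encodes JAM-A, was at 5.02 and 2.68 TPM, whereas Jam2 (0 and 0.49 TPM) and Jam3 (0 and 0.23 TPM) were not detected. Cd99l2, which acts in leukocyte passage through vessel walls, had no count in replicate 1, where a count of 0 allows up to 0.0451 TPM for counting error only, and 4.81 TPM in replicate 2 from 251 expected counts.

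The listed cadherins, which join cells through like molecules on a neighbour, were not detected. Cdh1 had no reads and Cdh2 was at 0 and 0.26 TPM. Of 11 catenins and other cadherins, 3 were detected in both libraries, namely Ctnnb1 (52.5 ± 1.81 TPM), Ctnnd1 (17.8 ± 4.0 TPM) and Ctnna1 (15.1 ± 2.73 TPM). Jup (0.09 and 2.54 TPM) and Cdh15 (1.43 and 0.02 TPM) passed in 1 library each. Epithelial markers were low as well, with Epcam at 0 and 0.38 TPM and a summed level of 5.21 and 4.63 TPM over 3 genes, nearly all Krt18.

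The niche ligands that these receptors read were mostly missing from the pools themselves. Of 29 ligands and counter-receptors, 2 were detected in both libraries, Sirpa (12.5 ± 0.64 TPM) and the collagen gene Col4a1 (2.17 ± 0.04 TPM). Vcam1, read by Itga4 pairs, was at 0 and 3.73 TPM, and fibronectin Fn1 at 0 and 0.02 TPM. Madcam1, Vtn and the hyaluronan synthase genes Has1, Has2 and Has3 had no reads. Besides Vcam1, the genes Col4a2 (0.96 and 2.55 TPM), Lamc1 (0.52 and 2.75 TPM), Lama5 (0.68 and 1.81 TPM) and Icam4 (0 and 3.12 TPM) passed in replicate 2 alone, and Npnt at 1.00 TPM in replicate 1 alone. Of 9 stromal and bone markers, Pdgfrb was detected in both libraries, the summed level was 4.52 and 7.02 TPM, and Cxcl12, Lepr and Pdgfra had no count.

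**Figure D4:**
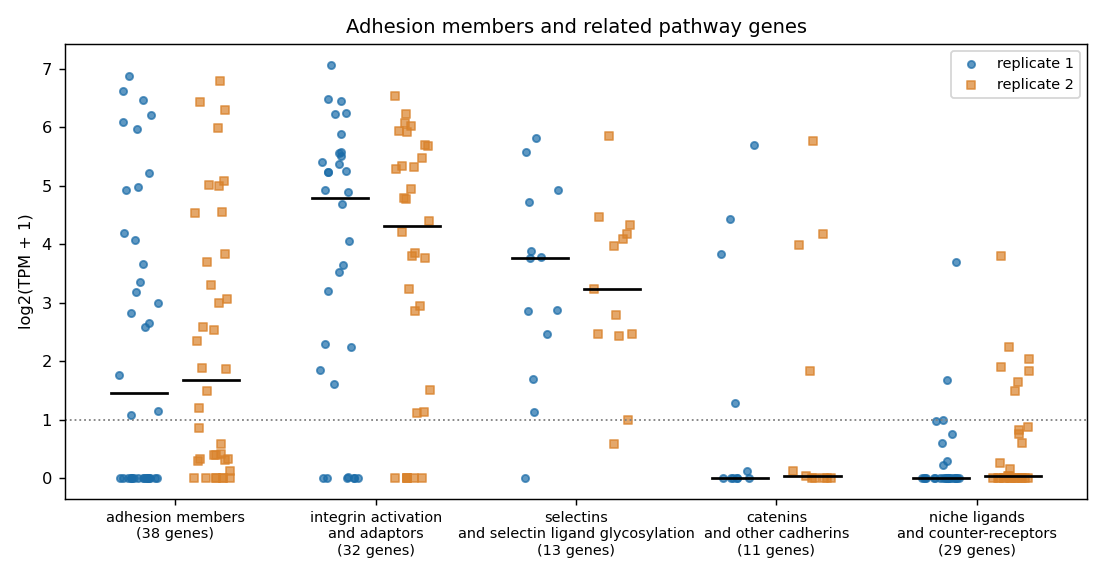
Levels as log2(TPM + 1) of the 38 adhesion genes and of 4 related gene lists, with a point per gene, circles for replicate 1, squares for replicate 2 and a black bar at each median. The dotted line marks 1 TPM. Activation genes have medians of 26.7 and 18.9 TPM, while the medians of the 29 niche ligands are 0 and 0.02 TPM.

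Differences between the libraries were compared with those of other genes. Of the 31 listed genes with a count in either library, 10 had none in replicate 1 and some in replicate 2 (32.3%), against 17.3% of coding genes, and 0 showed the reverse, against 0.962%. In replicate 2 these 10 genes ranged from 0.08 to 4.81 TPM, with 9 under 1 TPM. Among 2188 coding genes whose replicate 2 level was between 0.05 and 1 TPM, 68.6% lacked any count in replicate 1 (exact binomial 95% interval 66.6 to 70.5), so an absence of reads there is a weak bound on a low gene. A count of 0 allows 0.0160 to 0.0632 TPM for the 17 genes without counts in replicate 1, and 0.0354 to 0.0671 TPM for the 7 in replicate 2, for counting error only.

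Of the 22 genes detected in either library, 4 were over 2-fold higher in replicate 1 on the log2(TPM + 1) scale (Itgax, Itgb7, Icam2 and Cd164), which is 18.2% against 11.2% of coding genes. Cd99l2 alone was over 2-fold higher in replicate 2, which is 4.55% against 12.1%. Over all 38 genes this balance turned under other settings, to 5 higher in replicate 1 and 9 in replicate 2 with a pseudocount of 0.1 TPM, and to 3 and 11 with DESeq2-normalized counts. The median difference of these 22 genes was 0.31 log2 units toward replicate 1, against 0.09 over coding genes. The higher library changed between TPM and CPM for 4 of the 20 detected genes, Tln1, Itgb1, Alcam and Itga10. For this count too, the share over all coding genes is not given here.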

How the data were processed

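Total RNA from 2 pools of 100 cells was sequenced, and the gene and transcript tables of each library were read. The authors deposited expected counts, estimates of the reads from each gene or transcript, under RSEM-style column names per the file headers. TPM values and posterior mean TPM values were deposited by the authors in the same tables, as was the percent of a gene's TPM on each transcript. The build is mm10 and the annotation GENCODE M4, as the sample notes deposited by the authors state. Aligner, versions and strand handling: not given in the sources used here. Reads from PCR copies carry no molecular identifiers and are not independent, so limits from counts cover counting error only.

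Gene symbols were looked up by Ensembl identifier, and positions, transcript types and sequences were taken from GENCODE M21 on GRCm38, the same build. All 159 transcripts of the 38 genes matched by identifier, 147 of them with the same length, among them every transcript whose exons are described. The gene list and the pathway, marker and pair lists were chosen with earlier results of these data known. Named genes were all 38, the 5 of highest mean in each pathway list, the partner chains Itga2b, Itgam and Itgb3, and leading transcripts of Cd44, Itga6, Itgb1, Cd47 and of the 9 genes whose leading transcript differed between libraries. Other genes of those lists, other transcripts and those of Tln1 were named after their values were seen. Some genes that this rule would name are not reported here. Differences used a pseudocount of 1 TPM and ratios 0.1 TPM. TMM factors (edgeR 4.0.16) and size factors (DESeq2 1.42.0, R 4.3.3) came from expected counts rounded to whole numbers. Detection and fold calls were tested on simulated data. Other steps used Python 3.11.15, numpy 2.4.6, pandas 2.3.3 and matplotlib 3.10.9.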

Additional observations from a re-analysis of the deposited data

How the results depend on the processing

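No paired analysis was possible because there is 1 group. The count of genes detected in both libraries, 20 as reported, ran from 17 to 21 under the other detection limits, posterior mean TPM, rescaled TPM, coding transcripts and with each library alone (21 and 21). The 12 integrin pairs became 7 at 2 TPM and 6 with coding transcripts only, and 12 and 13 with each library alone. The median of the 38 genes (2.02 ± 0.31 TPM) was 7.21 with TPM rescaled over nuclear coding genes and 1.45 with coding transcripts, and 1.80 to 2.24 with a library left out. The log2 ratio of Itgb1 to its partners stayed below 0 in every alternative run, at -2.02 to -1.05 with a library left out. That of Itgb2 (-1.31 ± 0.09) was -1.38 to -1.25 with a library left out and -3.89 with coding transcripts, where the cause was not tested.

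The median log2 difference of all 38 genes, -0.01, was -0.037 with posterior mean TPM, -0.10 with rescaled TPM, -0.023 with TMM-normalized CPM, -0.031 with DESeq2 size factors, 0 with coding transcripts and 0.31 over genes with a mean of at least 1 TPM, which leaves out the genes at or near 0. The count higher in replicate 1 stayed at 3 to 5. The count higher in replicate 2, 1 as reported, was 5 with rescaled TPM, 2 with coding transcripts, 9 with a pseudocount of 0.1 TPM, 4 with TMM-normalized CPM and 11 with DESeq2 size factors. The last setting also changed the unit of the pseudocount, from 1 CPM to 1 normalized count, so its 11 is not due to the scaling alone. Replicate 1, the library with more counts, was also the one that lacked reads of more low genes, so total depth gives no bound on what it missed.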

Other observations

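The beta 2 partner genes lie on chromosome 7 in mm10, with Itgam (128062640 to 128118491), Itgax (128129547 to 128150657) and Itgad (128154376 to 128223816) side by side on the plus strand and Itgal (127296260 to 127335138) before them. Their levels did not follow each other. Itgal was at 15.8 and 13.3 TPM, Itgam at 1.18 and 9.52 TPM, Itgax at 2.39 and 0.31 TPM, and Itgad at 0 in both libraries. The adjacent genes Itgam and Itgax were thus each higher in a different library.

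Icam2, Itgav, Alcam, Itga9, Itgal and Itga10 were further genes whose leading transcript differed between the libraries. For Itgal, both leading forms were coding, with Itgal-202 at 77.1% of TPM in replicate 1 and 26.7% in replicate 2, and Itgal-203 at 22.9% and 50.9%. For Icam2, the 574-base Icam2-203 carried 67.3% in replicate 1 and the 1282-base Icam2-201 45.7% in replicate 2, after 0% in replicate 1. Itgav led with the retained-intron Itgav-203 in replicate 1 (51.9%) and the coding Itgav-201 in replicate 2 (28.3%), and Alcam with the retained-intron Alcam-204 (51.7%) and the coding Alcam-206 (35.3%). Itga10 changed from the coding Itga10-202 (100%) to the retained-intron Itga10-203 (76.7%), and Itga9 from the 649-base Itga9-205 (84.5%) to the 7020-base Itga9-201 (50.6%). The latter genes rest on 56.9 to 177 expected counts a library.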
